A study of Homo sapiens with 34 samples.

Results

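The 10 genes described here encode the subunits of Polycomb repressive complex 2 (PRC2), namely EZH1, EZH2, EED, SUZ12, RBBP4, RBBP7, MTF2, PHF1, PHF19 and JARID2. They are 10 of the 19970 protein-coding genes in the annotation (GENCODE 44, chromosomes 1 to 22 and X). Their sites were all peaks whose summit, the base with the most fragments, lay in the gene body or within 50 kb of the transcription start site (TSS) of the gene record. This gave 264 of 290228 summits in 8 peak lists. Such a window may also hold sites of neighbouring genes, and the nearest protein-coding TSS is named where it was not that of the PRC2 gene. Genes and peaks were chosen from the lists themselves, so the values below describe them and were not tested.

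Binding of RBPJ and SOX2 was mapped by ChIP-seq, the sequencing of DNA recovered with an antibody, in MB157, a NOTCH-driven triple-negative breast cancer line, and in MB157R, derived from it by 25 weeks in 1 µM of the γ-secretase inhibitor (GSI) LY3039478. All cells carried a doxycycline-inducible lentiviral vector and received 1 µg/ml doxycycline for 72 h. The vector was empty (iEV) in both lines, encoded HA-tagged SOX2 in MB157 (iSOX2), or carried NOTCH1 with an HA tag and no extracellular domain in MB157R (iN1-ICD). RBPJ was precipitated in all 4 cell populations, HA in MB157 iEV (control) and iSOX2, and SOX2 in MB157R iEV and iN1-ICD. The 34 libraries were 22 immunoprecipitations in 8 groups and 12 inputs in 4 groups, with 3 libraries per group except 1 for the HA control. The libraries of a group had been pooled for peak calling, leaving 1 list per condition and no measure of replicate spread. The intervals below cover counting error only.

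PRC2 places methyl groups on lysine 27 of histone H3, a mark of silenced developmental genes. EZH2 or its paralog EZH1 is the catalytic subunit, and EED, SUZ12 and the histone-binding proteins RBBP4 and RBBP7 complete the core. Accessory subunits direct the complex to CpG-rich DNA, with the Polycomb-like proteins MTF2, PHF1 and PHF19 forming PRC2.1 and JARID2 forming PRC2.2. RBPJ is the DNA-binding protein of the NOTCH pathway, while SOX2 is known for its role in stem and progenitor cells.

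MTF2 had a promoter peak in all 3 SOX2 lists and all 4 RBPJ lists, which no other PRC2 gene had. Its SOX2 peak in MB157R iEV had a fold enrichment over the input background of 62.9, the highest of 37963 SOX2 peaks in those cells. RBBP7 and JARID2 carried the strongest RBPJ promoter peaks, with folds of up to 56.4 and 25.3. RBBP4 was the other gene whose promoter SOX2 peak exceeded a fold of 10. PHF19 had 25 summits over 3 MB157R lists and 0 over the 3 MB157 lists.

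The sequences of 6 SOX2 sites are shown because they are the highest folds of SOX2 in MB157R iEV at MTF2, EED (the top 3) and PHF19, and the highest of HA-SOX2 at EZH2. They are hg38, plus strand, with capitals marking ACAAT or ACAAAG on either strand (ATTGT or CTTTGT when read on the other strand). These shorter letters were chosen after the sequences had been seen. The 6 sites do not stand for all strong ones. The RBBP4 promoter site (fold 14.6, SOX2 in MB157R iEV) is not shown. The strongest HA-SOX2 site at EED (fold 26.4) is not shown either and held none of these letters within 100 bp. Of the 30 SOX2 summits of MB157R iEV at PRC2 genes, 11 (36.7%) had the shorter letters within 100 bp. The motif counts below used ACAATG or ACAAAG for SOX. The capitals at EED 26.9 and 48.9 kb upstream, at PHF19 and at ATTGT of MTF2 match the shorter letters only. The first is the 185 bases before the MTF2 TSS, chr1:93079050-93079234, and the others are 81 bases centred on a summit, at chr11:86160625-86160705, chr11:86174270-86174350, chr11:86152317-86152397, chr9:120892921-120893001 and chr7:148852060-148852140. The EZH2 site is from the HA-SOX2 list and the others are from SOX2 in MB157R iEV. EED distances run from the TSS of the gene record, not from the start of the canonical transcript.
MTF2 promoter: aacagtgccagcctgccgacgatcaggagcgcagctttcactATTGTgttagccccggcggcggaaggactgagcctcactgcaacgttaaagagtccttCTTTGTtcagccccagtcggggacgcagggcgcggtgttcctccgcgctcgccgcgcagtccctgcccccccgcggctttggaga
EED 40.5 kb upstream: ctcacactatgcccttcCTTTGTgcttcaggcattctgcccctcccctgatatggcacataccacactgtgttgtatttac
EED 26.9 kb upstream: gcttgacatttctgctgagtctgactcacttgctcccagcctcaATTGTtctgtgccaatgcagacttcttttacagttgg
EED 48.9 kb upstream: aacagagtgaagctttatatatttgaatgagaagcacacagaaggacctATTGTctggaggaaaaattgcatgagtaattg
PHF19 1.94 kb downstream of the TSS: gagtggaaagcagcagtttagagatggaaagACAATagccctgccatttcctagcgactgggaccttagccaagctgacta
EZH2 intron: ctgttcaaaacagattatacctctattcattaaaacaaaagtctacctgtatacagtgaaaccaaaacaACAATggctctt
In the MTF2 promoter, CTTTGT lay at bases 93079150 to 93079155, and the SOX2 summit of MB157R iEV was its first base. It was the only match within 100 bp of that summit among the 7 motifs searched, whose letters are given with the motif counts below. Motifs other than these SOX letters are not marked in the 6 sequences. The EED site 26.9 kb upstream held TGACTCA (AP-1) and CCAAT, 16 and 17 bp from its summit. It held no ACAATG or ACAAAG within 100 bp.

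Promoter peaks, with a summit within 1 kb of a coding TSS of the gene, were counted first. RBPJ lay at the promoter of 6 of the 10 genes in MB157 iEV, where 44.4% of all protein-coding genes had one. The count was 9 of 10 with iSOX2 (57.6% of all genes). MB157R had 10 of 10 with iEV (63.5%) and 9 of 10 with iN1-ICD (49.9%). The genes without one were PHF1, PHF19, EZH1 and SUZ12 in MB157 iEV, PHF19 in iSOX2 and SUZ12 in iN1-ICD. For HA-SOX2 the count was 4 of 10 (41.3% of all genes), for SOX2 in MB157R iEV 6 of 10 (27.4%) and for SOX2 in iN1-ICD 1 of 10 (0.115%). The HA control had 0 summits at the 10 promoters and in the 10 windows, with 0.0801% and 0.551% of all genes having one.

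**Figure D1:**
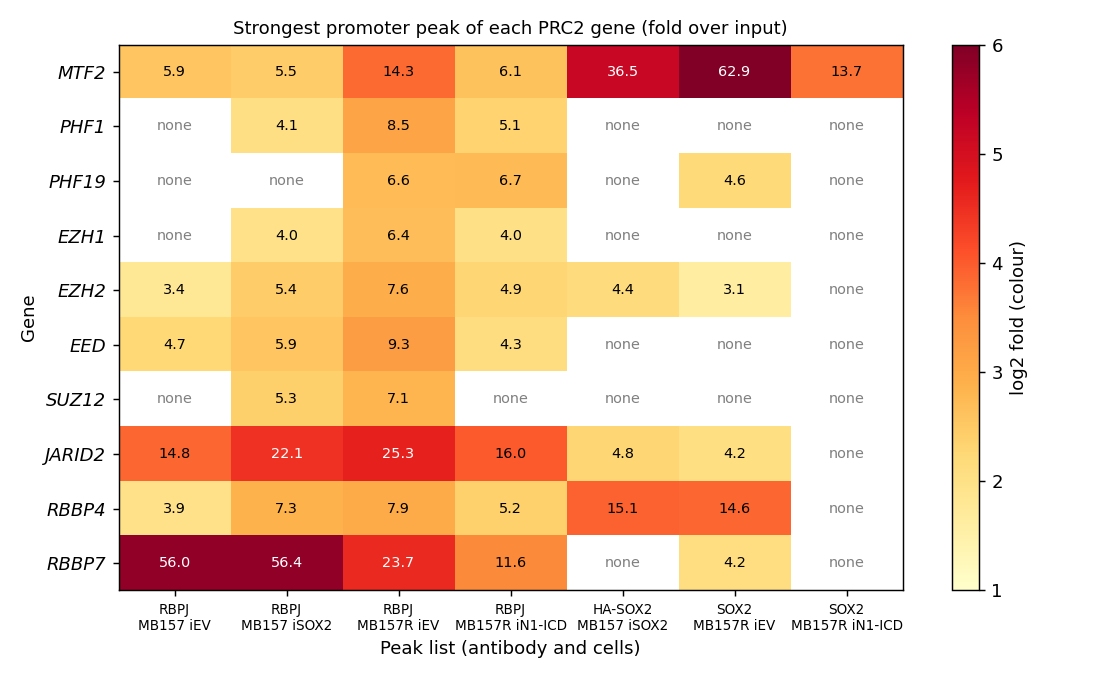
Fold enrichment over input of the strongest promoter peak of each PRC2 gene (rows) in 7 peak lists (columns), with colour on a log2 scale and "none" where no peak was called. MTF2 is the only row filled in all columns, with 62.9 for SOX2 in MB157R iEV, and RBBP7 has the highest RBPJ folds, 56.0 and 56.4, both in MB157.

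RBPJ marked the promoter in all 4 of its lists for 6 genes, MTF2, EZH2, EED, JARID2, RBBP4 and RBBP7, beside 32.2% of all genes. Promoters of 6 genes carried both RBPJ and SOX2 in MB157R iEV (26.2% of all genes), and 4 carried both RBPJ and HA-SOX2 in MB157 iSOX2 (35.2%). SOX2 of MB157R iEV and HA-SOX2 shared 4 promoters, MTF2, EZH2, JARID2 and RBBP4 (20.3% of all genes). All 3 SOX2 lists were shared at 1 PRC2 gene, MTF2, and at 20 genes in all (0.1%). All 7 lists were shared at MTF2 and at 17 genes in all (0.0851%).

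Over the whole windows, RBPJ had 25 summits at 8 genes in MB157 iEV and 32 at 9 genes in iSOX2, where 75.1% and 84.4% of all genes had one. In MB157R iEV it had 46 and in iN1-ICD 40, both at 10 genes (87.1% and 80.8% of all genes). HA-SOX2 had 90 at 9 genes (92.4%), SOX2 of MB157R iEV 30 at 9 genes (75.7%) and SOX2 of iN1-ICD 1 at 1 gene (1.41%). Median folds at the PRC2 genes were 4.22 for SOX2 in MB157R iEV, 5.55 for HA-SOX2 and 4.90 to 6.06 for RBPJ. The medians over the whole lists were 5.32, 5.99 and 4.44 to 5.23. The median at the PRC2 genes was thus the lower value for HA-SOX2 and for SOX2 in MB157R iEV, and the higher one in each RBPJ list. These differences were small beside the range of single folds at the PRC2 genes and were not tested. That range was 2.95 to 62.9 for SOX2 in MB157R iEV, 2.84 to 54.0 for HA-SOX2 and 2.78 to 56.4 over the RBPJ lists. The summit nearest to the limit of the windows on the inside was an RBPJ summit 2 bp within it at EED (fold 5.38, MB157 iEV), and on the outside an HA-SOX2 summit 874 bp beyond it at PHF1 (fold 32.5).

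**Figure D2:**
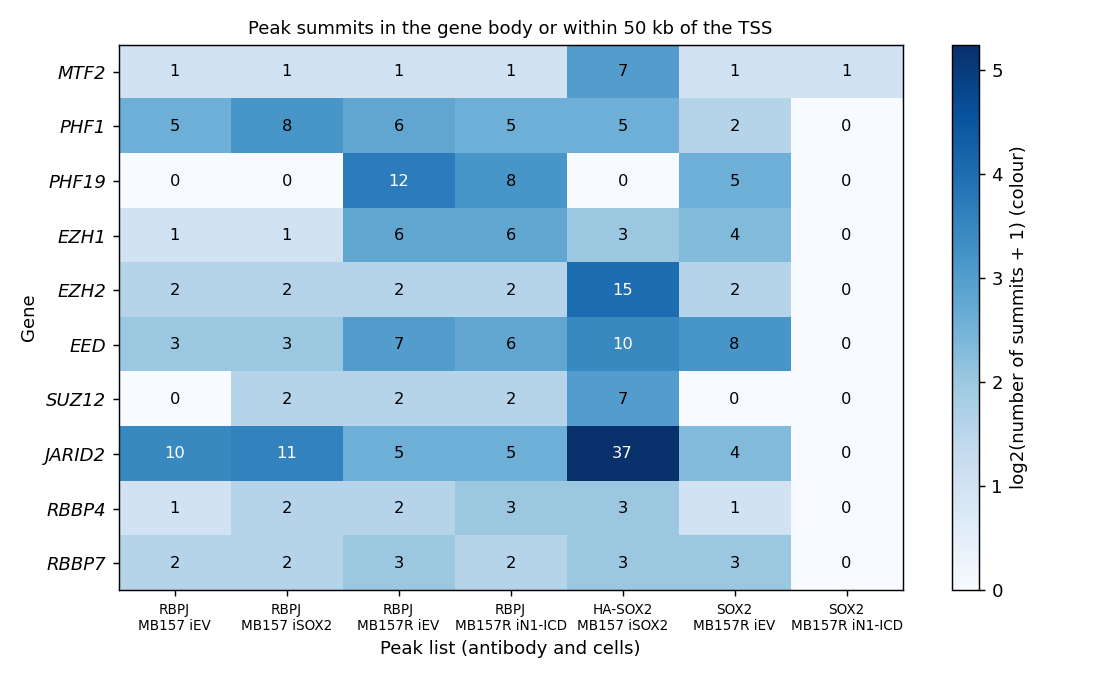
Number of peak summits in the gene body or within 50 kb of the TSS of each PRC2 gene (rows) in 7 peak lists (columns), with colour showing log2 of the count plus 1. JARID2, the longest gene, has 37 of the 90 HA-SOX2 summits, and PHF19 has 0 in the MB157 lists.

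Among the catalytic subunits, EZH2 (chr7:148807257-148884321, minus strand) carried weak promoter peaks of both factors. Its RBPJ promoter folds were 3.44 in MB157 iEV, 5.44 in iSOX2, 7.65 in MB157R iEV and 4.93 in iN1-ICD. HA-SOX2 had a promoter fold of 4.42 and SOX2 in MB157R iEV 3.08, both in intron 1 near a second TSS, at ranks 77887 of 108203 and 36412 of 37963. The strong sites at EZH2 were distal and belonged to HA-SOX2 alone. The peak at chr7:148851587-148852606, in an intron 32.2 kb into the gene, had a fold of 54.0 and 213 fragments at its summit (exact Poisson 95% interval 185 to 244). Another, 16.6 kb upstream, had a fold of 29.3 and 127 fragments (106 to 151). HA-SOX2 had 15 summits in the EZH2 window and SOX2 in MB157R iEV had 2. At 30.2 kb upstream, RBPJ and SOX2 summits of MB157R iEV lay 17 bp apart, with folds of 4.97 and 3.81, and RBPJ in iN1-ICD had 5.38 there.

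EZH1, the paralog of EZH2 (chr17:42700275-42745049, minus strand), had few sites of its own. The RBPJ promoter peak was absent from the list of MB157 iEV and had a fold of 3.95 with iSOX2, 6.41 in MB157R iEV and 3.99 with iN1-ICD. Its strongest RBPJ summits lay nearest to the TSS of WNK4 (fold 11.8, MB157R iEV) and VPS25 (10.7, iN1-ICD). SOX2 was not called at the promoter in any list, and an HA-SOX2 summit 7.63 kb upstream had a fold of 15.4. The remaining window peaks of EZH1 were mostly nearer to RAMP2, VPS25 and WNK4.

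EED, the core subunit that reads the methyl mark (chr11:86201212-86278813, plus strand), had SOX2 upstream and RBPJ at its promoter. RBPJ promoter folds were 4.73 in MB157 iEV, 5.93 in iSOX2, 9.33 in MB157R iEV and 4.28 in iN1-ICD, all in exon 1 of the canonical transcript, which starts well inside the gene record (summit 43.8 kb in for MB157R iEV). No SOX2 list had a promoter peak. SOX2 in MB157R iEV had 8 summits, and the strongest lay 40.5 kb upstream (fold 13.7, 47 fragments, 34.5 to 62.5), 26.9 kb upstream (13.4, 41 fragments, 29.4 to 55.6) and 48.9 kb upstream (11.7, 73 fragments, 57.2 to 91.8) of the TSS of the gene record. An RBPJ summit of the same cells lay within 500 bp of 6 of the 8. Of these 3 sites, the one 48.9 kb upstream was also an HA-SOX2 site in MB157 iSOX2, with a fold of 24.2. RBPJ there had folds of 6.71 and 5.63 in MB157 iEV and iSOX2 and 10.6 and 9.63 in MB157R iEV and iN1-ICD, so this was a site of 6 lists. The RBPJ summit of MB157R iEV was 301 bp from the SOX2 summit and held an RBPJ motif, shown in capitals at chr11:86152016-86152096.
EED 49.2 kb upstream: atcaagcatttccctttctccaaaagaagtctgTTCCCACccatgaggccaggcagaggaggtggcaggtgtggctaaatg
At the site 26.9 kb upstream RBPJ had folds of 11.8 in MB157R iEV and 5.53 in iN1-ICD, and was not called in MB157. The input background on chromosome 11 was also higher in MB157R. Its median at peaks was 1.15 and 1.17 times the genome background for RBPJ in MB157 iEV and iSOX2. It was 1.54 and 1.43 times in MB157R iEV and iN1-ICD, 1.09 times for HA-SOX2 and 1.55 times for SOX2 in MB157R iEV. Its part in the differences at EED was not tested. HA-SOX2 had its strongest EED peak 2.48 kb upstream of the TSS of the gene record, with a fold of 26.4. No other list had a summit there. All EED distances run from that TSS, so these upstream sites lay further from the RBPJ promoter peaks. The MB157R iEV summit of those promoter peaks was 43.8 kb inside the gene record.

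**Figure D3:**
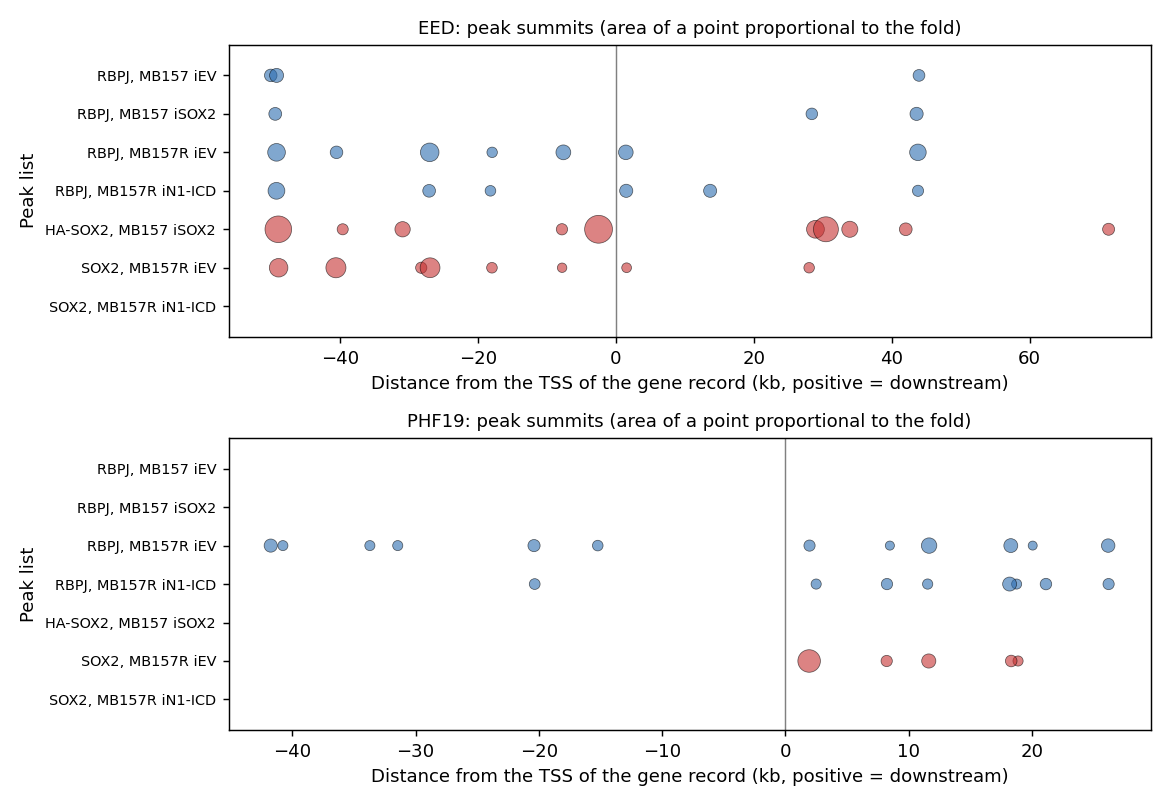
Peak summits at EED and PHF19 by distance from the TSS of the gene record (kb, positive is downstream), 1 row per peak list, RBPJ in blue and SOX2 in red, with the area of a point proportional to its fold. The upstream part of the EED window holds paired RBPJ and SOX2 summits in MB157R iEV, and the PHF19 window holds 12, 8 and 5 summits for RBPJ in MB157R iEV, RBPJ in iN1-ICD and SOX2 in MB157R iEV and 0 in the MB157 lists.

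SUZ12, which holds the complex together (chr17:31937007-32001038, plus strand), had 2 RBPJ summits in each list other than MB157 iEV, which had 0. Its promoter carried RBPJ in MB157 iSOX2 (fold 5.27) and MB157R iEV (7.06) only. SOX2 of MB157R iEV had no summit in the window, and HA-SOX2 had 7, the strongest 24.2 kb upstream with a fold of 26.2. Of the 7, 6 were nearer to UTP6 than to SUZ12. SUZ12 and RBBP4 have near-identical pseudogene copies, so reads there may map less surely, which was not tested.

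RBBP4 (chr1:32651142-32686211, plus strand) carried both factors at its promoter. SOX2 in MB157R iEV had a fold of 14.6 and 68 fragments (52.8 to 86.2) and HA-SOX2 15.1 and 48 fragments (35.4 to 63.6), with summits 23 bp apart. RBPJ folds were 3.95 in MB157 iEV, 7.30 in iSOX2, 7.88 in MB157R iEV and 5.18 in iN1-ICD, below those of SOX2. In MB157R iEV the RBPJ and SOX2 summits were 22 bp apart. The RBPJ peak with the highest fold in the window, 13.1 in MB157R iEV, was nearest to ZBTB8OS.

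RBBP7, the paralog of RBBP4 (chrX:16839283-16870362, minus strand), had the strongest RBPJ promoter of the 10 genes. The fold was 56.0 in MB157 iEV, rank 24 of 25243 peaks, and 56.4 in MB157 iSOX2, rank 17 of 34521. In MB157R iEV it was 23.7, rank 377 of 46601, and in iN1-ICD 11.6, rank 1880 of 37297. The summits held 199 (172 to 229), 296 (263 to 332), 71 (55.5 to 89.6) and 31 (21.1 to 44.0) fragments in this order. Divided by the background expected anywhere in the genome, which follows the depth of a list, these were 124, 145, 39.0 and 17.7. RBPJ was higher in both MB157 lists than in both MB157R lists, with intervals that did not overlap. The input background on chromosome X moved in the same direction: its median at peaks was 1.41 and 1.5 times the genome background in the MB157 lists and 1.00 times in the MB157R lists. Its part in the difference at RBBP7 was not tested. A weak SOX2 peak of MB157R iEV, with a fold of 4.25, lay 0.624 kb upstream. This summit was 86 bp from a weaker RBPJ summit of the same cells (fold 4.96) and lay inside the wide RBPJ peaks of MB157 iEV and iSOX2. No SOX2 summit of any list fell within 500 bp of the RBPJ summits at the TSS. The site 12.4 to 12.7 kb upstream was called in 6 lists with folds of 3.65 to 9.16.

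**Figure D4:**
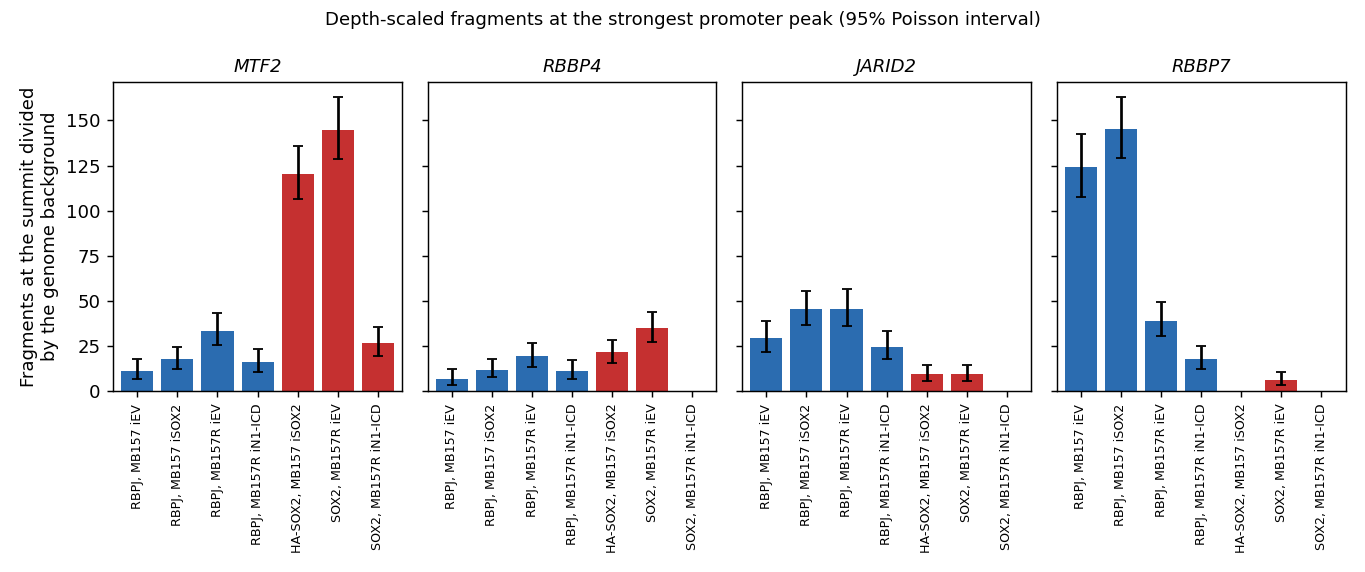
Fragments at the summit of the strongest promoter peak of MTF2, RBBP4, JARID2 and RBBP7, divided by the genome background of the list, for RBPJ (blue) and SOX2 (red) lists, with exact Poisson 95% intervals as bars. MTF2 is highest in the SOX2 lists (145 and 120) and RBBP7 in the RBPJ lists of MB157 (124 and 145), and a missing bar means that no promoter peak was called.

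MTF2, a Polycomb-like subunit that binds unmethylated CpG-rich DNA (chr1:93079235-93139079, plus strand), had its binding concentrated at the promoter. SOX2 in MB157R iEV gave a peak at chr1:93078842-93079565 with 284 fragments at the summit (252 to 319). In iN1-ICD the fold was 13.7 with 46 fragments (33.7 to 61.4), rank 2 of 323, and the summits were 7 bp apart. HA-SOX2 in MB157 iSOX2 had a fold of 36.5 with 270 fragments (239 to 304), rank 2951 of 108203, with a summit 5 bp away. Per genome background the 3 values were 145 (129 to 163), 26.4 (19.4 to 35.3) and 120 (106 to 136). The SOX2 signal in iN1-ICD was therefore below that in MB157R iEV beyond counting error, although the peak was still called. The whole SOX2 list held 323 peaks in iN1-ICD and 37963 in MB157R iEV. The fold was lower in iN1-ICD at all 20 promoters of all 3 SOX2 lists. HA-SOX2 came from another antibody and line, so its value is not directly comparable.

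RBPJ had 1 summit in the MTF2 window in each list, all at the promoter. The fold was 5.93 in MB157 iEV with 18 fragments (10.7 to 28.4) and 5.47 in iSOX2 with 36 (25.2 to 49.8). It was 14.3 in MB157R iEV with 61 fragments (46.7 to 78.4), and 6.09 in iN1-ICD with 28 (18.6 to 40.5). Per genome background these were 11.2, 17.7, 33.5 and 16.0, so MB157R iEV was the highest, with an interval (25.6 to 43.0) above those of MB157 iEV (6.65 to 17.7), iSOX2 (12.4 to 24.5) and iN1-ICD (10.6 to 23.1). The direction was not particular to MTF2. MB157R iEV was also the highest RBPJ list at the strongest promoter peak of every other PRC2 gene except RBBP7. At each of those genes its interval overlapped that of the next highest list. MB157R iEV had 19.2 at RBBP4 (6.86 to 11.8 in the others) and 15.9 at EED (7.48 to 8.35). At JARID2 it had 45.5 (36.3 to 56.5), and iSOX2 had 45.2 (36.4 to 55.4). The genome background stands for depth only, and the yield of the pull-down was not tested. RBPJ summits at MTF2 lay 98 to 150 bp from those of SOX2 in the same cells. The local input background at this promoter was 2.86 and 2.83 times the genome background in the HA-SOX2 and RBPJ lists of iSOX2, and 1.38 to 2.14 times in the others. Beyond the promoter, MTF2 had 6 further summits, all of HA-SOX2 alone, with folds of 2.85 to 6.7, and 2 of them were nearest to CCDC18.

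PHF1, another Polycomb-like subunit (chr6:33410399-33416453, plus strand), is a short gene among close neighbours. Its promoter had no RBPJ peak in MB157 iEV, and folds of 4.10 with iSOX2, 8.50 in MB157R iEV and 5.08 with iN1-ICD. No SOX2 list had a promoter peak. Most other summits of the window were nearest to KIFC1 or CUTA. The strongest was an HA-SOX2 peak nearest to KIFC1, with a fold of 18.3.

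PHF19, the remaining Polycomb-like subunit (chr9:120855651-120894896, minus strand), had summits in MB157R and not in MB157. RBPJ had 12 summits in MB157R iEV and 8 in iN1-ICD, and SOX2 had 5 in MB157R iEV. In MB157 there were 0 in all 3 lists, HA-SOX2 with its 108203 peaks included. Of all protein-coding genes, 932 (4.67%) had no summit in the 3 MB157 lists, and 10 of these, PHF19 among them, had at least as many summits in these 3 MB157R lists. The stretch without a summit around PHF19 spanned 494 kb for RBPJ in MB157 iEV, 232 kb for RBPJ in iSOX2 and 128 kb for HA-SOX2. The input background on chromosome 9 moved with it: its median at peaks was 1.25, 1.24 and 1.18 times the genome background in these 3 lists, and 1.55, 1.55 and 1.65 times in the MB157R lists that had summits there. Its part in the difference was not tested.

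The strongest PHF19 site was SOX2 in MB157R iEV at chr9:120892521-120893184, 1.94 kb downstream of the TSS of the gene record, with a fold of 17.4 and 103 fragments (84.1 to 125). An RBPJ summit with a fold of 4.30 lay 32 bp from it. At the internal promoters of PHF19, RBPJ reached folds of 6.61 in MB157R iEV and 6.68 in iN1-ICD, and SOX2 4.62 in MB157R iEV. SOX2 in iN1-ICD had no summit in the window. Of the 12 RBPJ summits in MB157R iEV, 6 were nearest to TRAF1.

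JARID2, the subunit of PRC2.2 that binds ubiquitinated nucleosomes (chr6:15246069-15522042, plus strand), had strong RBPJ at its promoter in all 4 lists. The folds were 14.8 in MB157 iEV, 22.1 in iSOX2, 25.3 in MB157R iEV and 16.0 in iN1-ICD. The summits held 47 (34.5 to 62.5), 92 (74.2 to 113), 83 (66.1 to 103) and 43 (31.1 to 57.9) fragments. Per genome background these were 29.3, 45.2, 45.5 and 24.5, so the 2 iEV populations, MB157 and MB157R, had intervals that overlapped (21.5 to 39.0 and 36.3 to 56.5), and iN1-ICD was below MB157R iEV (17.7 to 33.0). SOX2 was weak at the same promoter, with folds of 4.19 in MB157R iEV and 4.84 for HA-SOX2.

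A further RBPJ site in an intron 259 kb into JARID2, nearest to the TSS of DTNBP1, had folds of 18.6, 15.6, 9.57 and 6.90 in MB157 iEV, iSOX2, MB157R iEV and iN1-ICD. It was among the strongest RBPJ sites of MB157 iEV, at rank 469 of 25243, and weaker in MB157R. HA-SOX2 had a fold of 13.3 and SOX2 in MB157R iEV 3.29 there. RBPJ had 10 and 11 summits over JARID2 in the MB157 lists and 5 in each MB157R list. HA-SOX2 had 37, and SOX2 in MB157R iEV had 4. The RBPJ counts were thus lower in MB157R, while at PHF19 RBPJ was called in MB157R only.

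RBPJ and SOX2 summits were called close together when less than 500 bp apart in the same cells. In MB157R iEV, 22 of the 46 RBPJ summits at PRC2 genes (47.8%, exact binomial 95% interval 32.9 to 63.1) lay near SOX2, beside 46.4% of the whole list. Of the 30 SOX2 summits, 22 (73.3%, 54.1 to 87.7) lay near RBPJ, beside 57% of the list, which is within the interval. The median distance of these pairs was 100 bp, and 90 bp over the whole list. In MB157 iSOX2, 18 of 32 RBPJ summits (56.2%, 37.7 to 73.6) lay near HA-SOX2 and 18 of 90 HA-SOX2 summits (20.0%, 12.3 to 29.8) near RBPJ, beside 47.1% and 15% of the lists. All 4 shares of the whole lists lay within the intervals at the PRC2 genes. In iN1-ICD the MTF2 promoter was the only such pair, 1 of 40 RBPJ summits and the 1 SOX2 summit, beside 0.668% and 76.5% of the lists. Per gene in MB157R iEV, SOX2 lay near RBPJ at 6 of 8 summits for EED, 4 of 5 for PHF19, 3 of 4 for JARID2, 2 of 4 for EZH1, 1 of 2 for EZH2, 2 of 2 for PHF1, 2 of 3 for RBBP7 and 1 of 1 for both MTF2 and RBBP4.

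Sites were also followed from list to list. SOX2 in iN1-ICD was called again at 1 of 30 sites of MB157R iEV (3.33%, 0.0844 to 17.2), the MTF2 promoter, beside 0.796% of the list. In reverse, it was the 1 SOX2 summit of iN1-ICD, and 93.5% of that list lay at SOX2 summits of MB157R iEV. HA-SOX2 in MB157 iSOX2 had a summit at 10 of the 30 (33.3%, 17.3 to 52.8), beside 34.7%. Of 25 RBPJ summits in MB157 iEV, 17 (68.0%, 46.5 to 85.1) were called again in iSOX2, beside 68.5%, and 13 (52.0%, 31.3 to 72.2) in MB157R iEV, beside 48.6%. Of 46 RBPJ summits in MB157R iEV, 28 (60.9%, 45.4 to 74.9) were called again in iN1-ICD, beside 56.3%. Joined at 500 bp, the 264 summits formed 149 sites, of which 36 held both factors, 40 RBPJ alone and 73 SOX2 alone. Of the sites with SOX2 alone, 68 were in the HA-SOX2 list only. Sites of all 4 RBPJ lists numbered 12, and 5 sites were in 6 lists: the EED site 48.9 kb upstream, both the JARID2 promoter and the JARID2 intron site, the RBBP4 promoter and the site upstream of RBBP7.

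Motifs were searched in hg38, on either strand, up to 100 bp from each summit. The letters were GTGGGAA or GTGAGAA for RBPJ, ACAATG or ACAAAG for SOX, TGACTCA for AP-1, CCGGAA for ETS, CACGTG for an E-box, CCAAT for a CCAAT box and GGGCGG for an SP site. A SOX motif lay at 8 of 30 SOX2 summits of MB157R iEV (26.7%), beside 43.1% of the whole list, and at 48 of 90 HA-SOX2 summits (53.3%), beside 60.4%. With the shorter letters ACAAT or ACAAAG, chosen after the sequences had been seen, it was 36.7% and 75.6% at PRC2 genes, beside 60.5% and 78.6% of the lists. The share at PRC2 genes was the lower value in each of these pairs, and the median GC content of the sites was 51.2% beside 45.3% of the list in MB157R iEV, whose part was not tested. RBPJ motifs lay at 6 of 25 RBPJ summits in MB157 iEV (24.0%), 6 of 32 in iSOX2 (18.8%), 7 of 46 in MB157R iEV (15.2%) and 8 of 40 in iN1-ICD (20.0%), beside 21.7%, 19.7%, 16.4% and 20.0% of the lists. No RBPJ motif lay within 100 bp of the RBPJ promoter summits of RBBP7 and MTF2, nor of the strongest one of JARID2, in any list. AP-1 lay at 8 of 46 RBPJ summits of MB157R iEV (17.4%, beside 18.5% of the list) and 3 of 40 of iN1-ICD (7.5%, beside 17.0%). In MB157 it lay at 0 of 25 with iEV and 0 of 32 with iSOX2, where the lists had 4.74% and 4.58%.

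Other Polycomb genes, a list of 35 drawn from textbook roles (further PRC2 partners, PRC1 subunits and genes for the removal of the marks), were examined in the same way. RBPJ lay at the promoter of 18, 26, 30 and 22 of them in MB157 iEV, iSOX2, MB157R iEV and iN1-ICD, beside 44.4%, 57.6%, 63.5% and 49.9% of all genes. HA-SOX2 did so at 17 (41.3% of all genes), SOX2 in MB157R iEV at 9 (27.4%) and SOX2 in iN1-ICD at 0 (0.115%). The highest SOX2 promoter folds in MB157R iEV were 9.32 at CBX2 and 7.25 at CBX8, chromodomain subunits of PRC1, and 4.57 at LCORL, a PRC2 partner. All were below the folds at MTF2 and RBBP4.

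The genes most like MTF2 were found over all 19970 by the distance between the log2 promoter folds in the 7 lists, with 0 where no peak was called. They were PLPP2 (distance 1.27), CEP41 (1.48), ZSCAN2 (2.12), PTMA (2.33) and CCDC159 (2.36). PLPP2, a lipid phosphatase, had folds of 42.7 for SOX2 in MB157R iEV, 37.9 for HA-SOX2 and 9.30 for SOX2 in iN1-ICD. CEP41, a centrosome protein, had 38.0, 25.3 and 9.27. MTF2 had the highest SOX2 folds in MB157R iEV and in iN1-ICD among the 20 promoters of all 3 SOX2 lists. A SOX motif lay at 12 of the 18 distinct SOX2 summits of those 20 genes in MB157R iEV (66.7%), and at 33.3% of 4826 promoter summits of that list. The 18 are among the 4826. The 20 genes needed a call in the list of 323 peaks, and their folds in MB157R iEV were 6.24 to 62.9, beside a list median of 5.32. The 2 sets were not matched on fold, so these shares do not show a trait of the 20 promoters apart from peak strength.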

How the data were processed

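Paired-end reads had been trimmed by the authors, mapped with BWA on hg38 and passed to MACS2 for narrow peaks (FDR 0.05), after pooling the libraries of a group and with inputs as controls. The deposited lists give each peak's position and summit (other columns), a display score, the ratio of fragments to local input background at the summit (the authors' fold), and the deposited −log10 p and −log10 q. Peaks on chromosomes 1 to 22 and X were used. Fold = (fragments + 1)/(background + 1), and the p is a Poisson upper tail, so both values gave the whole number of fragments and the background at each summit. This worked for 100% of peaks. The smallest background of a list, 1.60 to 2.24 in the 7 lists other than the HA control (0.524), is its genome background and stands for its depth, since read totals were not used here. The recovery of fragments was tested on simulated data.

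The 10 genes, the list of other Polycomb genes and the motifs were chosen with earlier results of these data known. Named peaks were the highest fold per gene and list and all promoter peaks. Other Polycomb genes were named by the 3 highest SOX2 promoter folds in MB157R iEV. With 1 pooled list per group no test was made. Alternatives changed the distances, the peak threshold and list length, the promoter, the window and the motif. Coordinates and motifs were read with pysam 0.24.0 and samtools 1.23.1, intervals came from scipy 1.17.1, tables from pandas 2.3.3 and numpy 2.4.6, and plots from matplotlib 3.10.9, under Python 3.11.15.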

Additional observations from a re-analysis of the deposited data

How the results depend on the processing

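Of 134 values recomputed under alternatives, 98 stayed within 1.5 times the count or within the interval of the share, and 36 did not. MTF2 had a promoter peak in all 7 lists also when peaks needed a −log10 q of 5 or more and when the longer lists were cut to the 25243 peaks with the highest −log10 q. That cut left RBPJ in MB157 iEV, which has this length, and SOX2 in iN1-ICD, with 323 peaks, as they were. That q limit left 3 genes with an RBPJ promoter peak in MB157 iEV and window counts of 13, 20 and 25 for RBPJ in MB157 iEV, iSOX2 and MB157R iN1-ICD, and of 17 for SOX2 in MB157R iEV. The cut to 25243 peaks left 2 genes with an HA-SOX2 promoter peak and 3 with SOX2 in MB157R iEV, window counts of 30 for RBPJ in MB157R iEV, 23 for HA-SOX2 and 14 for SOX2, and 30.4% for both shares of RBPJ and HA-SOX2 near each other. With peaks that cover a TSS, 3 genes had SOX2 in MB157R iEV. Windows of 10 kb held 14, 20, 24 and 22 RBPJ summits (MB157 iEV, iSOX2, MB157R iEV, iN1-ICD) and 17 SOX2 summits of MB157R iEV, and those nearest to the gene's own TSS were 16, 20, 26 and 25 for RBPJ. At less than 100 bp, RBPJ lay near SOX2 at 18.8% (iSOX2) and 23.9% (MB157R iEV), SOX2 near RBPJ at 6.67% and 36.7%, and RBPJ was called again at 44.0% (MB157 iEV in iSOX2), 37.0% (MB157R iEV in iN1-ICD) and 28.0% (MB157 iEV in MB157R iEV). Within 50 bp of the summit, the SOX and AP-1 shares at RBPJ in MB157R iEV were 0% and 2.17%, and at HA-SOX2 the RBPJ, SOX and AP-1 shares were 2.22%, 38.9% and 1.11%. The shorter SOX letters, added after the data had been examined, gave 19.6% at RBPJ in MB157R iEV and 75.6% at HA-SOX2. These letters are a broader definition and raised the shares, from 4.35% and 53.3%. The other definitions in this paragraph that moved values are narrower and keep fewer peaks, distances or bases by construction. A share can still rise under them: the cut to 25243 peaks took HA-SOX2 near RBPJ from 20.0% up to 30.4%, and RBPJ near HA-SOX2 from 56.2% down to 30.4%. Distances under 250 and 1000 bp, overlapping peak regions and promoters of 5 kb moved no value beyond its limit. No paired analysis was possible because the peaks were called on pooled libraries and the lists carry no replicate numbers, and no replicate could be left out for the same reason. Median fragments per summit of 15 to 23 limit what can be said of weak peaks: a gene without a peak is one where none was detectable at this depth.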
